A study of Mus musculus with 24 samples.

Results

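The response of B6 mouse dendritic cells to lipopolysaccharide (LPS, the endotoxin of Gram-negative bacteria) was followed across the transcriptome by comparing 4 libraries of treated cells with 4 libraries of untreated cells. The comparison covers every gene of the deposited table that reached 1 TPM (the deposited unit, an abundance per transcript length scaled to a fixed library total) in at least 4 of the 24 libraries of the series, which is 13246 of 55291 gene symbols. Bone marrow of B6 mice was cultured for 7 days with the growth factor GM-CSF at 20 ng/ml, and the cells were either left untreated or given LPS of E. coli 0111:B4 at 10 ng/ml for 6 hours. Both groups therefore carry the GM-CSF exposure, and they differ in LPS alone. Each group holds 4 mice, cultured separately, and the untreated and the LPS library of a mouse share its number. The labels give B6 as the strain and name no allele, age or sex. The strains labelled C57 and PWD enter only where the spread between libraries is estimated and in the closing comparison of responses.

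LPS is held by the co-receptor CD14 and passed to the complex of MD-2 (Ly96) and Toll-like receptor 4, which signals from the surface through Myd88 to NF-kB and MAP kinases and from endosomes through Ticam1 (TRIF) to the interferon regulatory factors. The interferon beta that is made then acts back on the cells through Jak-Stat signalling and drives a further wave of antiviral genes. Dendritic cells that sense LPS are known to stop taking up antigen, to display peptides with co-stimulatory molecules and to move to lymph nodes. GM-CSF cultures of bone marrow are known to hold macrophage-like cells beside dendritic cells, so marker genes were read first.

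Itgax, the CD11c integrin that defines such cultures, stood at 372, 305, 299 and 385 TPM in the untreated and 243, 208, 249.9 and 249 TPM in the LPS libraries. Zbtb46, a factor of conventional dendritic cells, was low, at 12.5 TPM in untreated and 15.3 TPM in LPS libraries on average (log2 change 0.28, not called, but called higher with the mouse as a block, adjusted p = 0.028). Among the alternatives listed below, it was also called higher on the 8 B6 libraries alone, in mice 3 and 4 alone and without structural RNA. Median-of-ratios scaling alone (0.81) and quantile normalization alone (0.74) called it higher as well. Flt3 and Xcr1, markers of dendritic cells grown with another factor, were under 1 TPM in most libraries and were not tested. The macrophage genes Csf1r, Adgre1 (F4/80) and C1qb were well expressed in untreated cells, at 323, 95.1 and 543 TPM. The marker list of conventional dendritic cells summed to 512 to 671 TPM in untreated and 471 to 544 TPM in LPS libraries. That of plasmacytoid dendritic cells, 5 genes, summed to 95.7 to 127 and 328 to 392 TPM. Of these 5 genes only 2 were tested, and both were called higher, which is too few to read as a sign of such cells. The marker list of monocytes and macrophages summed to 1761 to 2251 TPM in untreated and 1551 to 1632 TPM in LPS libraries, and that of neutrophils to 1862 to 2112 and 1236 to 1494 TPM. B cell and T and NK cell lists summed to under 5 TPM in every B6 library, with Cd3e and Ncr1 near 0. In bulk samples, fewer cells of a type and less RNA per cell cannot be told apart, and this holds for every value below.

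Libraries of one group were alike (Pearson's r across genes of 0.984 to 0.987 in untreated and 0.986 to 0.990 in LPS libraries) and parted by treatment (r of 0.922 to 0.935 between the groups). Read depth is unknown, since TPM keep no count. Structural RNA took 37.8% of TPM in untreated and 37.048% in LPS libraries (exact permutation test, two-sided, p = 0.857). Fewer genes reached 1 TPM after LPS, 10830 against 11669 on average, which gave the smallest p that 4 against 4 libraries allow (exact permutation test, two-sided, p = 0.0286, 0.0857 adjusted over 3 values). The LPS library of mouse 1 stood somewhat apart in short and mitochondrial RNA: mt-Co2 was listed at 0 there against 33.1 to 109.6 TPM in the other LPS libraries, and Rn7s2, 1 of 2 near-identical copies of 7SL RNA, reached 163693 TPM. Small nuclear RNA took 7.93% of TPM there, against 4.28% to 5.94% in the other LPS libraries. Both 7SL copies together were not raised there, at 25.1% against 26.4% to 27.2%. How reads were split between the copies was not tested.

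The typical gene was lower after LPS, by a median log2 change of -0.43. That shift depends on scaling: it was 0 with median-of-ratios scaling and -0.06 after quantile normalization. A gene was therefore called higher or lower only when limma gave a Benjamini-Hochberg adjusted p under 0.05 with the same sign under all 3 scalings, and each adjusted p printed is the largest of the 3. Printed fold changes are log2 differences of TPM as deposited, with 1 TPM added, so they understate changes of genes near 0 TPM and they lie below those of median-of-ratios scaling by 0.43 in the median over all tested genes and by other amounts in single genes (Ccl17 was at 1.04 and 1.61, Il6 at 7.62 and 8.16). Their median standard error was 0.12.

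Under this rule 1563 genes rose (11.8% of those tested) and 3518 fell (26.6%), or 38.4% in either direction. These shares are the background for the counts of list members below. TPM as deposited alone gave 1575 higher (11.9%) and 7905 lower (59.7%), of which 16.6% were higher, and median-of-ratios scaling alone gave 4128 (31.2%) and 4025 (30.4%), of which 50.6% were higher. The median log2 change was 0.79 among the genes that rose and -1.03 among those that fell, and 584 rises against 1869 falls were of 1 or more. The largest changes were rises. Of the genes that rose, 164 did so by 2 or more on the log2 scale and 17 by 4 or more, whereas 121 genes fell by 2 or more and 1, a pseudogene, by 4 or more. The protein-coding genes that rose took 15.6% to 16.6% of all protein-coding TPM in untreated libraries and 35.7% to 36.966% after LPS, a share fixed in direction by how these genes were chosen. In 8 genes the level went from under 1 TPM in every untreated library to 10 TPM or more in every LPS library, among them Nos2, Il12a, Csf3, Il1f6 (interleukin 36 alpha), Hamp, Apol9b and Itgb8; the other carries only an accession-like name.

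**Figure D1:**
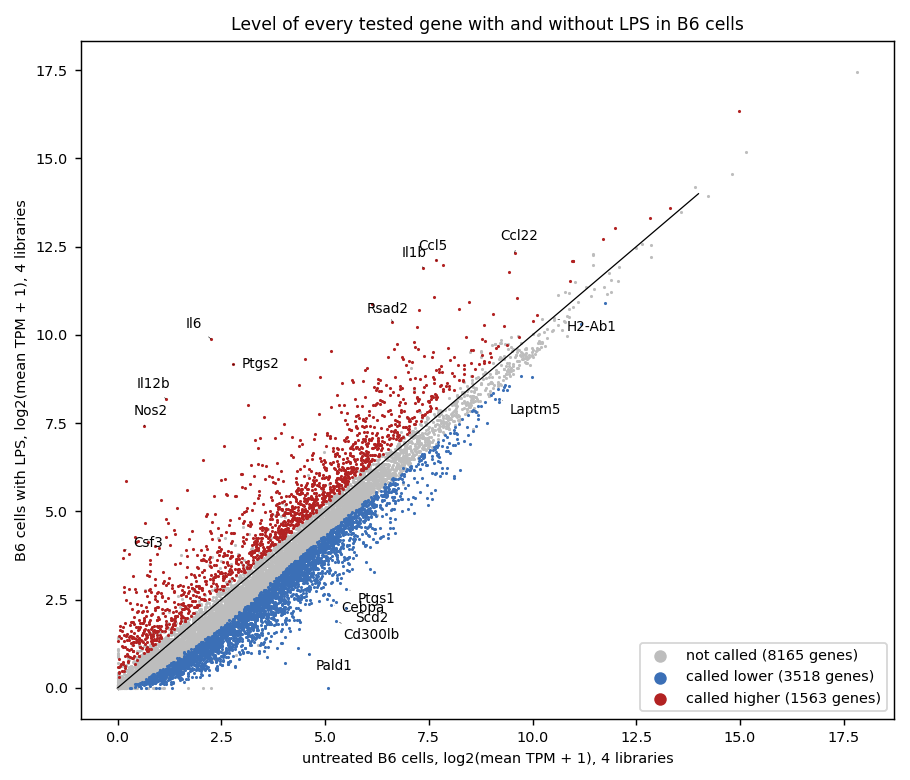
Each point is a tested gene, with log2(mean TPM + 1) over the 4 untreated libraries on the horizontal axis and over the 4 LPS libraries on the vertical axis, coloured as called higher, called lower or not called, and a line of equal level. The largest rises stand far above the diagonal (Il6 at a log2 change of 7.62), and the falls, which are more numerous, form a band below it.

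Genes of LPS sensing moved in both directions. Cd14 stood at 199, 206, 182 and 183 TPM in the untreated and 447, 396, 483 and 464 TPM in the LPS libraries. All 4 LPS libraries lay above all untreated ones, as in 10.6% of all tested genes, and the log2 change was 1.21 (SE 0.10, adjusted p = 2.6e-11). Tlr4, the signalling receptor, moved the other way, with 97.9, 119.6, 79.6 and 92.6 TPM in the untreated and 54.6, 47.5, 62.2 and 50.009 TPM in the LPS libraries. The groups did not overlap, a state that 53.8% of all tested genes met with LPS lower. Tlr4 fell by 0.84 on the log2 scale (SE 0.10, adjusted p = 0.00255), and in mice 3 and 4 alone it was not called (-0.61). Ly96, which binds LPS beside Tlr4, rose slightly (0.47), as did the adaptor Myd88 (0.44), and Ticam1 was not called (0.13). With median-of-ratios scaling alone (0.65) or quantile normalization alone (0.61) Ticam1 was called higher. Among 30 tested receptors, adaptors and kinases of the pathway, 11 rose and 6 fell, so falls were no more frequent than among all tested genes (26.6%). The rises included the MAP kinase kinase Map2k1 (1.23) and the kinases of the interferon branch Ikbke (0.91) and Tbk1 (0.68). The falls included Irak1 (-0.97), the kinase recruited to Myd88, the p38 kinase Mapk14 (-1.08) and Tab1 (-1.20), an activator of the kinase Tak1. Of 24 other pattern receptors 16 rose, among them the RNA sensors Tlr3 (2.16) and Ifih1 (2.47) and the peptidoglycan sensor Nod1 (1.68). Mavs (-1.06), the adaptor of the RNA sensors, Sting1 (-0.85), the adaptor of DNA sensing, and Tlr13 (-1.05), a receptor of bacterial ribosomal RNA, fell, with Sting1 not called without the LPS library of mouse 2 (-0.75).

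Of 11 listed cytokines of the IL-6, IL-10 and IL-12 families, 9 were tested and all 9 rose. Their median log2 change was 3.51 against -0.43 over all genes. Il10, Il12a and Il23a averaged under 1 TPM in untreated B6 cells, so in them a fall could hardly have been seen. Il6, the fever and acute-phase cytokine, showed the largest log2 change of any tested gene with a pseudocount of 1 TPM, with 4.01, 2.57, 4.0039 and 4.42 TPM in the untreated and 876, 663, 1113 and 1119 TPM in the LPS libraries. The groups lay far apart, and the log2 change was 7.62 (SE 0.17, adjusted p = 2.3e-19). With a pseudocount of 0.1 TPM it was 7.93, below that of Nos2 (8.04). Il12b, the p40 chain that IL-12 and IL-23 share, stood at 1.55, 0.835, 0.926 and 1.61 TPM in the untreated and 278, 149, 340.1 and 392 TPM in the LPS libraries. Its partners Il12a and Il23a rose from under 1 TPM to 17.024 ± 2.39 and 6.30 ± 1.47 TPM, so that after LPS the shared chain stood far above either partner in TPM, a level per length. Il27, another IL-12 relative, reached 39.2 ± 7.96 TPM. Il10, which restrains the same cells, rose from 0.0831 ± 0.0917 to 11.8 ± 4.38 TPM (SD over 4 libraries). Its log2 change of 3.51 became 6.08 with a pseudocount of 0.1 TPM, and those of Il23a and Csf3 went from 2.71 and 3.73 to 5.07 and 6.07.

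The sequence upstream of the Il6 start is shown as an example of an LPS-responsive promoter, from RefSeq on GRCm38.p6 (chr5:30012864-30013113, plus strand, 250 bases up to the start). Capitals mark an AP-1 motif (TGANTCA) beginning -249 bases, a CCAAT box beginning -106 bases and a kB motif (GGGA, any base and TTTCC) beginning -44 bases from the start.
Il6: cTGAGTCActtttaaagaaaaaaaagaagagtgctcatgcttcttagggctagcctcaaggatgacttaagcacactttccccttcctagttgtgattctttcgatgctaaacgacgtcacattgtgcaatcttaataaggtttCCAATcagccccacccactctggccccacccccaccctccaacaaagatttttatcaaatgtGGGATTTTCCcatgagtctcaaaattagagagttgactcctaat
The 150 bases upstream of Il12b (chr11:44399913-44400062, plus strand) held none of these letters, nor those of the interferon response element described below, which says only that they are not in this window.
Il12b: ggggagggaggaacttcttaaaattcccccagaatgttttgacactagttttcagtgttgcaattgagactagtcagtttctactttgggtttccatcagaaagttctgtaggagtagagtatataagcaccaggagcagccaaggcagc
The kB letters stood, on either strand, in 0.382% of the promoter windows of tested genes (9419 windows of 250 bases before the start), in 1.04% of those of genes that rose and in 5.04% of those that rose by 2 or more on the log2 scale (119 windows).

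Interleukin 1 was split by role. Of its family, 6 of 6 tested ligands rose, whereas of 6 receptors none rose and 4 fell. Among the ligands, Il1f6 was under 1 TPM in every untreated library, so in it a fall could hardly have been seen. Il1b stood at 173, 141, 176 and 164 TPM in the untreated and 3799.5, 3031, 4363 and 4085 TPM in the LPS libraries. Its log2 change was 4.53 (SE 0.13, adjusted p = 7.9e-17), and Il1a, the form that acts when cells die, rose with it (4.73). The receptor antagonist Il1rn rose from 529 ± 47.1 to 1537 ± 129 TPM, while the decoy receptor Il1r2 fell (-1.43). Receptor chains for IL-18 (Il18rap, -1.98, and Il18r1, -1.14) and IL-33 (Il1rl1, -1.84) fell, while their ligands Il18 (1.53) and Il33 (1.38) rose from low levels. Il18r1 was low as well, at 1.27 to 1.95 TPM in the untreated libraries, and its change was -2.45 with a pseudocount of 0.1 TPM.

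Tnf was already made without LPS, at 134, 99.2, 138 and 143 TPM in the untreated and 629.6, 518, 669 and 631 TPM in the LPS libraries. The groups did not overlap, and the rise of 2.25 (SE 0.12, adjusted p = 8.9e-15) was far smaller than that of Il6. Of 13 tested ligands of the TNF superfamily 8 rose and 4 fell. Tnfsf15 (TL1A), which co-stimulates T cells, rose most (4.88 ± 1.51 to 115 ± 29.2 TPM, log2 change 4.30), and the death ligand Tnfsf10 (TRAIL) rose by 2.53. Tnfsf12 (TWEAK, -1.48) and the B cell factor Tnfsf13 (APRIL, -1.46) fell, the latter no longer called without the LPS library of mouse 2 (-1.19). On the receiving side, Tnfrsf1b, the inducible TNF receptor, rose (1.41) and Tnfrsf1a, the death-domain receptor, was not called (-0.20). Among growth factors, Csf3, which drives neutrophil production, rose from under 1 TPM to 13.9 TPM, and Csf2 (GM-CSF itself) was called higher but stayed under 1 TPM (0.0258 to 0.333 TPM, 0.38). Csf2 was not called without the LPS library of mouse 2 (0.34) or 4 (0.34) or the untreated one of mouse 1, 2 or 3 (0.36 in each). Il15 (3.08), which sustains NK and memory T cells, and the activin chain Inhba (2.95) rose. Csf1r, the receptor for the macrophage growth factor, stood at 352, 354, 268 and 317 TPM in the untreated and 134, 132, 129.8 and 112 TPM in the LPS libraries. It fell by 1.33 (SE 0.11, adjusted p = 5.3e-11), whereas the GM-CSF receptor chains Csf2ra (-0.62) and Csf2rb (-0.34) were not called. Of 11 tested monocyte and macrophage markers 2 rose, Ly6c2 (1.12) and the Fc receptor Fcgr1 (0.67), and 6 fell.

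Chemokines were among the most abundant messages of the stimulated cells. Of 27 tested 17 rose and 3 fell, with a median log2 change of 1.03. Ccl5, which attracts T cells and monocytes, stood at 245, 166, 202 and 203 TPM in the untreated and 4283, 4056, 4394 and 4929 TPM in the LPS libraries. The change was 4.44 (SE 0.18, adjusted p = 2.6e-14). The chemokines of regulatory and type 2 T cells were high from the start: Ccl17 stood at 4410.4, 3710.0, 3684 and 4517 TPM in the untreated and 9088, 7797, 8015 and 8643 TPM in the LPS libraries, and Ccl22 at 918, 664, 646 and 801 TPM in the untreated and 5659.8, 4787, 4779 and 5292 TPM in the LPS libraries. Both rose without overlap of the groups, Ccl22 by 2.77 and Ccl17 by 1.04 on the log2 scale. Of 11 tested CXC chemokines 8 rose. The neutrophil attractants Cxcl1 (4.89), Cxcl2 (3.44), Cxcl3 (2.33) and Cxcl5 (2.83) and the ligands of Cxcr3, Cxcl9 (2.73), Cxcl10 (3.48) and Cxcl11 (2.84), were among them. The platelet-type chemokine Ppbp (-1.53) and Ccl6 (-0.83) fell. Ccl2, the monocyte attractant, rose little (317 ± 32.004 to 416 ± 14.2 TPM, 0.39).

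Chemokine receptors moved in both directions. Ccr2, which answers Ccl2 and brings monocytes to inflamed tissue, stood at 204, 209, 156 and 186 TPM in the untreated and 40.8, 35.7, 44.8 and 37.7 TPM in the LPS libraries. It fell by 2.22 (SE 0.12, adjusted p = 1.6e-14), and Cxcr4 (-1.74), Cxcr2 (-2.10) and Ccr1 (-0.76) fell as well. Ccr1 was not called without the LPS library of mouse 1 or 4 or the untreated one of mouse 2 (-0.76, -0.70 and -0.66). Ccr7, which guides mature dendritic cells along lymphatics, stood at 151, 115, 113 and 149 TPM in the untreated and 461, 402, 410.2 and 442 TPM in the LPS libraries, a rise of 1.70 (SE 0.15, adjusted p = 3.9e-09). Ccrl2, a chemerin-binding receptor, rose too (2.61).

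**Figure D2:**
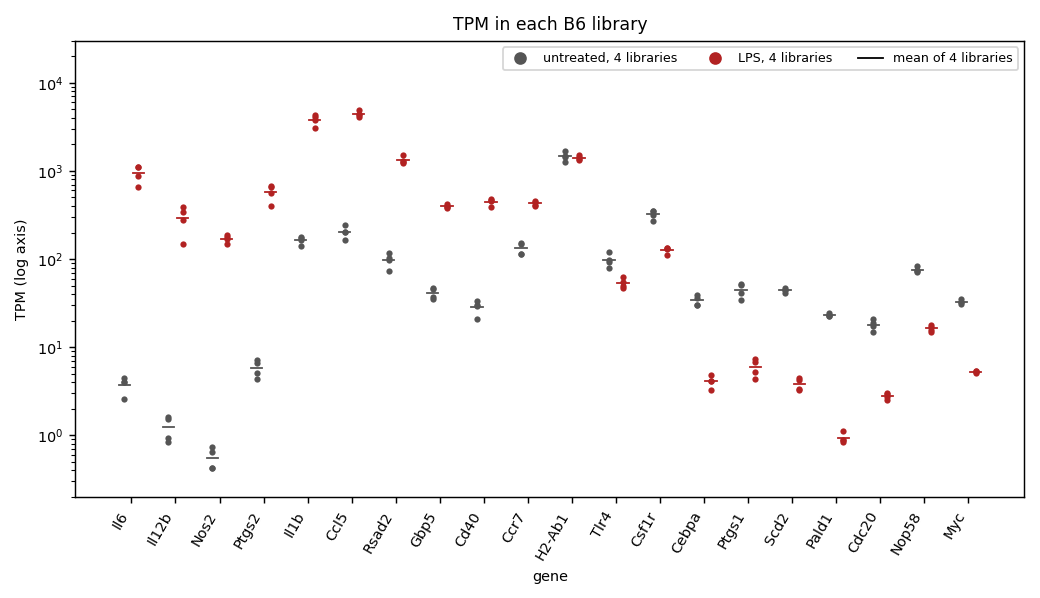
TPM on a logarithmic axis of 20 genes in each of the 8 B6 libraries, with a point for each library, untreated in grey and LPS in red, and a short bar at the mean of 4. In genes that rose (Il6, Il12b, Nos2, Ptgs2) and in genes that fell (Csf1r, Cebpa, Ptgs1, Scd2) the points of the groups do not overlap, whereas those of H2-Ab1 do.

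Interferon messages were scarce and their targets plentiful. Ifnb1 stood at 0.467, 0.507, 0.875 and 0.113 TPM in the untreated and 1.97, 4.48, 4.23 and 3.05 TPM in the LPS libraries, a log2 change of 1.56 (SE 0.22, adjusted p = 7.1e-07), or 2.71 with a pseudocount of 0.1 TPM. None of the interferon alpha, lambda and gamma genes looked for reached the level for testing. Of 63 antiviral interferon-stimulated genes, 61 rose, with a median log2 change of 1.70. Rsad2 (viperin), which blocks viral RNA synthesis, stood at 102, 73.1, 98.3 and 116 TPM in the untreated and 1221, 1262, 1511 and 1283 TPM in the LPS libraries, and its change was 3.76 (SE 0.18, adjusted p = 1.7e-13). The ubiquitin-like Isg15 rose from 148 ± 36.4 to 1183 ± 28.1 TPM, the exonuclease Isg20 by 3.65 and the oligoadenylate synthetase-like Oasl1 by 3.10 on the log2 scale. The oligoadenylate synthetases Oas1a (1.85), Oas2 (1.31) and Oas3 (2.15), which sense viral RNA, rose. Ifi44l was listed at 0 in all 8 libraries. Of 8 tested interferon regulatory factors, 3 rose: Irf7 stood at 52.5, 40.2, 46.2 and 61.7 TPM in the untreated and 397, 398, 432 and 388 TPM in the LPS libraries, a rise of its mean from 50.2 to 404 TPM (adjusted p = 6.8e-16). Irf8 (1.04) and Irf1 (0.90) rose less, and Irf3, the factor that Ticam1 signalling activates as a protein, was not called (-0.68). Stat2 (0.81), which carries the type I interferon signal, rose. The interferon gamma receptor chain Ifngr1 (-1.61) and both chains that receive IL-6, Il6ra (-1.79) and Il6st (-1.27), fell.

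Interferon-inducible GTPases, both guanylate-binding proteins and the immunity-related kind, attack membranes around microbes, and they rose in 16 of 17 tested members. Gbp5, which promotes inflammasome assembly, stood at 47.3, 35.3, 36.8 and 46.2 TPM in the untreated and 395, 381, 420.0 and 390.3 TPM in the LPS libraries. Its log2 change was 3.24 (SE 0.16, adjusted p = 1.4e-14), and Iigp1 (3.65), Gbp6 (3.44) and Gbp2 (2.71) followed. Members of this family are close in sequence, as are the Ifi200 and Schlafen genes, so single values among them are uncertain where reads could be split between copies.

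Promoter windows of 3 interferon-responsive genes are shown because the letters of the interferon-stimulated response element (ISRE, searched as GAAA, any pair of bases and GAAA, on either strand) recur in them, from RefSeq on GRCm38.p6. Capitals mark ISRE letters beginning -213 bases from the Cxcl10 start (chr5:92348890-92349139, minus strand), -104 and -85 bases from the Ifit1 start (chr19:34640739-34640888, plus strand) and -120 bases from the Rsad2 start (chr12:26456453-26456602, minus strand), with AP-1 letters in Cxcl10 (-74) and Rsad2 (-87) and a CCAAT box in Cxcl10 (-54).
Cxcl10: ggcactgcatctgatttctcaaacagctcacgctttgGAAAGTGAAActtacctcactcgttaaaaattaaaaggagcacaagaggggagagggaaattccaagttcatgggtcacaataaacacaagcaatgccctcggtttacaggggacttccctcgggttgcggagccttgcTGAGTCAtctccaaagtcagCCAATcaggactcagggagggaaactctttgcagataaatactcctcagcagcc
Ifit1: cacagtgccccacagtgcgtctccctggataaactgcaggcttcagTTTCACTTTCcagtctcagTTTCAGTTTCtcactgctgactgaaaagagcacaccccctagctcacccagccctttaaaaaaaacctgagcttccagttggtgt
Rsad2: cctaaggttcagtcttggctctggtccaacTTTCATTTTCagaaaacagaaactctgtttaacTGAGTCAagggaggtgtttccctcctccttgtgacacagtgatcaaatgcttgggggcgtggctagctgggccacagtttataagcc
The ISRE letters were found in 3.02% of all windows of tested genes, 8.07% of those of genes that rose and 26.9% of those that rose by 2 or more. They stood in 10 of 10 windows of guanylate-binding proteins and GTPases and in 16 of 50 of the antiviral list. A match is a description of letters and no proof of a bound site.

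Some genes that rose lay side by side. Along the chromosomes of mm10 there were 24 runs of 4 or more consecutive tested protein-coding genes that all rose, holding 137 genes, and 99 runs that all fell, holding 466; falls were also more frequent overall. The longest rise spanned 13 genes on chromosome 1 (173350879 to 174031810), from the DNA sensor Aim2 through the Ifi200 family to Ifi205, with log2 changes of 0.36 to 4.84. Other runs were the GTPases from Irgm1 to Tgtp2 and Ifi47 on chromosome 11 (48861968 to 49135387), the guanylate-binding proteins from Gbp5 to Gbp2 with their neighbours on chromosome 3 (142493978 to 144205220) and the Ms4a membrane proteins on chromosome 19 (11321039 to 11604849). The Schlafen genes on chromosome 11 (82951349 to 83215154), the Ifit genes on chromosome 19 (34550694 to 34650009) and the antigen-processing genes Psmb9, Tap1, Psmb8 and Tap2 on chromosome 17 (34181987 to 34216321) did the same.

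**Figure D3:**
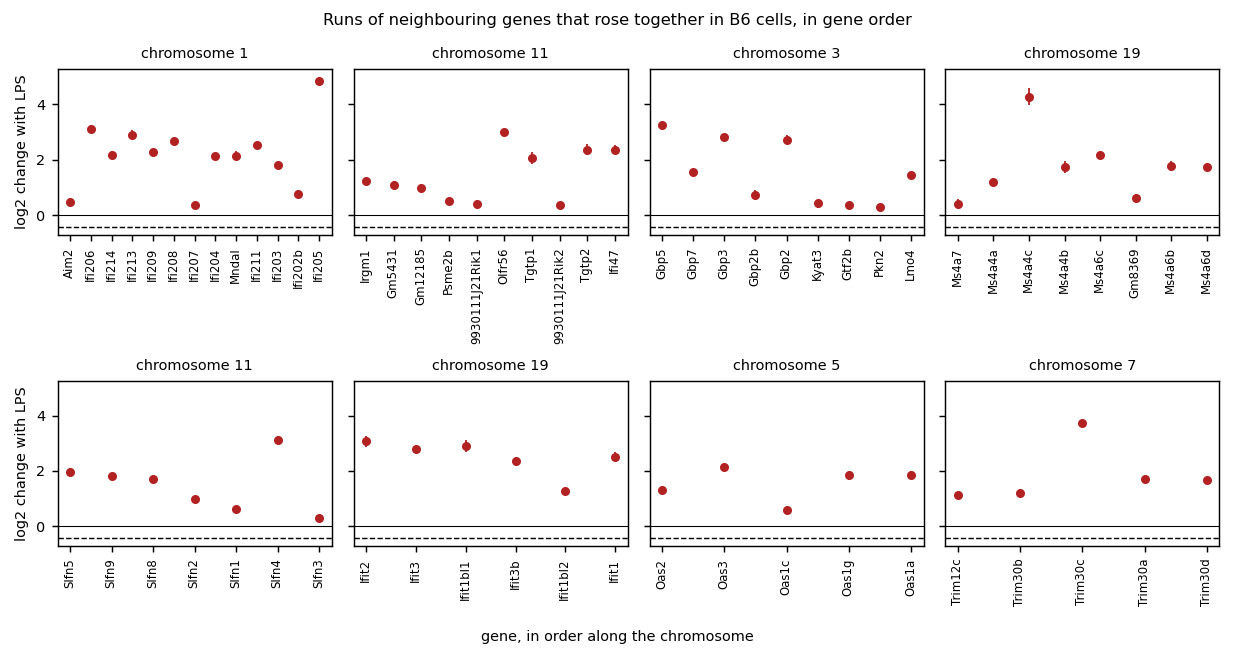
Log2 change with LPS of each gene in 8 runs of neighbouring genes that rose, in chromosomal order within each panel, with bars of 1 standard error, a line at 0 and a dashed line at the median of all tested genes (-0.43). Changes within a run are uneven, as between Aim2 (0.49) and Ifi205 (4.84).

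Antigen display through the class I pathway rose broadly, in 20 of 23 tested members. The transactivator Nlrc5 (1.62), the peptide transporter chains Tap1 (1.38) and Tap2 (1.10), tapasin (Tapbp, 1.35) and the immunoproteasome subunits Psmb9 (1.20) and Psmb10 (1.34) rose, and B2m, the shared light chain, went from 1899 ± 140.0 to 2949 ± 237 TPM. That rise (0.63) was not called without the untreated library of mouse 1 (0.65) or mouse 2 (0.62). Of 24 subunits of the standard proteasome, 5 rose. MHC class II genes stood at high levels, and 14 of 17 were not called. Their log2 changes ranged from -1.25 to 0.69. The median was -0.41, near that of all tested genes, and 0.15 with median-of-ratios scaling, so its direction depended on the scaling. H2-Ab1 stood at 1695, 1444, 1267 and 1485 TPM in the untreated and 1521, 1345, 1362 and 1422 TPM in the LPS libraries. The groups overlapped, with a log2 change of -0.05 (SE 0.14), and the class II transactivator Ciita was likewise not called (0.03, and -0.14 without the untreated library of mouse 3). H2-DMa, which exchanges peptides on class II molecules, fell (-1.25). With median-of-ratios scaling H2-Ab1 was higher after LPS, by 0.51.

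Surface molecules that speak to T cells rose. Cd40, through which T cells license dendritic cells, stood at 30.3, 21.1, 28.993 and 33.7 TPM in the untreated and 470.2, 393, 457 and 477 TPM in the LPS libraries, a change of 3.95 (SE 0.17, adjusted p = 7.1e-15). Of 12 tested co-stimulatory molecules 11 rose, with Cd83 (1.71) and Cd86 (1.09) ahead of Cd80 (0.50), which was not called in mice 1 and 2 alone (0.18). Of 10 inhibitory ones 6 rose, as Cd274 (PD-L1, 1.24) and Cd200 (2.54) did, while Vsir (VISTA) fell (-2.38). A list of genes of migratory dendritic cells rose in 20 of 22 members, among them the actin bundler Fscn1 (fascin, 2.23) and Il15ra (2.61), which presents IL-15. That list draws on genes known to rise with maturation.

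Receptors of uptake split. Of 16 C-type lectins 5 rose and 8 fell. Clec7a (dectin-1), the receptor of fungal beta-glucan, stood at 1051, 896, 979 and 1128 TPM in the untreated and 452, 336, 541 and 459 TPM in the LPS libraries, a log2 change of -1.19 (SE 0.12, adjusted p = 2.2e-06). Clec10a (-2.09) and Mrc1, the mannose receptor (-1.16), fell. Mrc1 was not called without the LPS library of mouse 2 (-0.96) or the untreated one of mouse 3 (-1.09) or 4 (-1.02). In the same list Clec4e (mincle, 2.38) and Ly75 (DEC-205, 2.003) rose. The scavenger receptor Marco, which binds bacteria, rose from 5.26 ± 3.40 to 43.4 ± 14.7 TPM, and Stab1 (-1.71) and Scarb1 (-1.71) fell. Complement receptors fell in 5 of 7 tested, among them the anaphylatoxin receptors C5ar1 (-1.56) and C3ar1 (-1.03), and so did all 3 chains of C1q, while factor B (Cfb) of the alternative pathway rose from 19.7 ± 7.83 to 384 ± 65.7 TPM (4.29). Of 13 integrin chains, 4 rose, as Itga4 (2.01), and 5 fell, as Itgb5 (-1.78); the endothelial-type adhesion molecule Vcam1 rose (3.13).

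**Figure D4:**
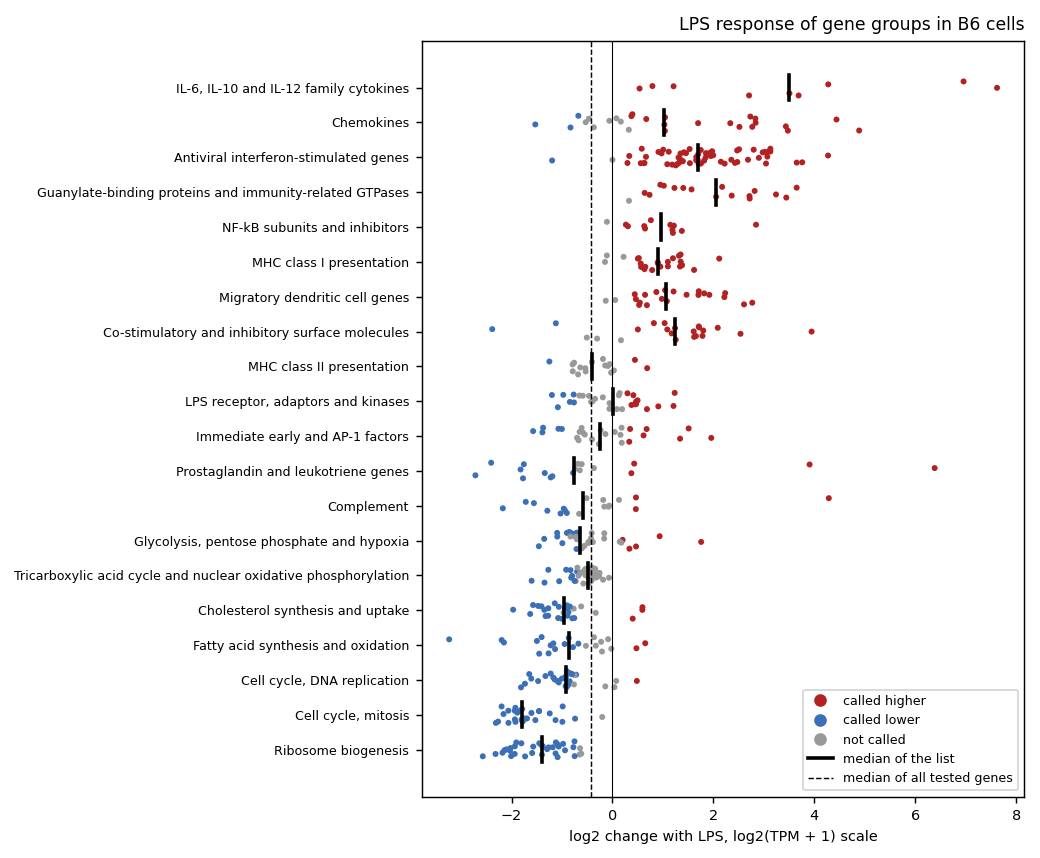
Log2 change with LPS of each tested member of 20 gene lists (points, coloured as called higher, called lower or not called), with a bar at the median of each list and a dashed line at the median of all tested genes. Nearly all antiviral interferon-stimulated genes lie to the right of 0, and nearly all members of mitosis and ribosome biogenesis lie to the left of the dashed line.

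The factors that carry the signal to the nucleus rose together with many of their inhibitors. Of 12 NF-kB genes 11 rose and none fell, all 5 subunits and all 6 inhibitors. Nfkbiz, the nuclear cofactor that Il6 and Il12b need in mouse macrophages, stood at 11.4, 9.11, 9.16 and 10.7 TPM in the untreated and 83.5, 72.8, 81.5 and 76.2 TPM in the LPS libraries, a change of 2.85 (SE 0.10, adjusted p = 1.4e-18), and the cytoplasmic inhibitor Nfkbia rose by 1.20. Among 28 negative regulators 9 rose and 7 fell, so falls were no more frequent than among all tested genes (26.6%). The ubiquitin editor Tnfaip3 (A20) stood at 60.1, 51.3, 54.9 and 65.3 TPM in the untreated and 259, 251, 268 and 233 TPM in the LPS libraries and rose by 2.11 (SE 0.10, adjusted p = 1.5e-15). Socs3 (1.53), the inhibitor of IL-6 receptor signalling, the RNase Zc3h12a (1.52), which destroys Il6 messages, and Irak3 (1.20) rose too. The lipid phosphatase Inpp5d (-2.01), Cd200r1 (-1.93), the receptor of Cd200, and the decay factor Zfp36l2 (-2.08) fell.

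Of 10 tested phosphatases of MAP kinases 6 rose and 3 fell, with Dusp1 (0.88), Dusp2 (1.44) and Dusp4 (1.23) higher and the ERK phosphatase Dusp6 lower (-1.96). Immediate early and AP-1 factors, many of which are known to peak soon after a stimulus, moved in both directions, with 7 of 26 higher, 5 lower and 14 not called. Their falls were no more frequent than those of all tested genes (26.6%). Egr1 (-1.37), Fos (-1.002) and Jun (-1.39) fell, whereas Junb (0.68), Batf (1.34) and the orphan receptor Nr4a3 (1.51) rose. Of 37 lineage factors 11 rose and 5 fell, against 11.8% and 26.6% of all tested genes. Cebpa, which keeps myeloid progenitors on the granulocyte and macrophage path, stood at 39.5, 30.5, 30.5 and 36.4 TPM in the untreated and 4.86, 4.16, 4.09 and 3.29 TPM in the LPS libraries and fell by 2.79 (SE 0.11, adjusted p = 3.4e-16). The monocyte and macrophage factor Klf4 (-1.79) fell, and Maf (1.95) and Gfi1 (2.03) rose. The lipid-sensing nuclear receptors Pparg (-1.65), Rxra (-1.90) and Rara (-1.84) fell, as did 4 of 8 clock genes. The histone deacetylases Hdac4 (-1.92) and Hdac5 (-2.23) fell, and the histone demethylase Kdm6b, known to be induced by LPS in macrophages, rose (0.77).

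Enzymes that make small effector molecules changed strongly and by branch. Nos2, the inducible nitric oxide synthase, stood at 0.645, 0.746, 0.427 and 0.420 TPM in the untreated and 148, 185, 179 and 171 TPM in the LPS libraries. The change was 6.78 (SE 0.12, adjusted p = 2.3e-21), and with it rose Slc7a2 (2.51), which brings arginine into the cell, and Gch1 (1.17), which makes the cofactor of Nos2. Arg1, the arginase that competes for arginine, stood at 30.8, 54.6, 30.955 and 23.1 TPM in the untreated and 6.94, 12.3, 8.33 and 5.19 TPM in the LPS libraries and fell by 1.95 (SE 0.32, adjusted p = 6.5e-04). The mitochondrial arginase Arg2 rose (0.73), while Odc1 (-1.26) and Srm (-2.33), the next enzymes towards polyamines, fell. Acod1, which makes itaconate, was already high and rose from 352 ± 26.5 to 1935 ± 177 TPM (2.45). Hdc, the histamine-forming enzyme, rose from 3.18 ± 0.661 to 86.1 ± 6.35 TPM (4.40).

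The cyclooxygenases, which start prostaglandin synthesis, moved in opposite directions. Ptgs2, the inducible form, stood at 6.58, 7.16, 4.40 and 5.11 TPM in the untreated and 557, 395, 676 and 662 TPM in the LPS libraries, a log2 change of 6.38 (SE 0.16, adjusted p = 2.3e-19). Ptgs1, the standing form, stood at 51.9, 50.7, 34.6 and 41.2 TPM in the untreated and 6.82, 7.41, 5.24 and 4.40 TPM in the LPS libraries and fell by 2.72 (SE 0.15, adjusted p = 2.3e-13). Ptges, the synthase that turns their product into prostaglandin E2, rose (3.91), whereas the thromboxane synthase Tbxas1 (-1.82) and the prostaglandin D2 synthase Hpgds (-1.22) fell. Hpgds was not called without the LPS library of mouse 1 or 2 or the untreated one of mouse 2 (-1.05, -1.11 and -1.09). No gene of the leukotriene branch rose and 3 of 5 fell, Alox5 (-1.77), its partner Alox5ap (-1.34) and Lta4h (-1.76), together with the leukotriene B4 receptor Ltb4r1 (-2.40). Receptors of other small signals were also exchanged: the adenosine receptor Adora2a (2.72) and the formyl peptide receptors Fpr1 (1.60) and Fpr2 (1.31) rose, and the cannabinoid receptor Cnr2 (-2.72) and the adenosine-forming ectoenzyme Nt5e (CD73, -2.44) fell.

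Of 27 tested genes of inflammatory cell death 16 rose and 6 fell, with 3 of 6 necroptosis genes and 5 of 6 core inflammasome genes higher. Among all tested genes 11.8% rose and 26.6% fell. The intracellular LPS sensor Casp4 (caspase-11, 1.86), Casp1 (1.20), Nlrp3 (1.09), Gsdmd (0.69), the pore former, and Mlkl (2.08), the executor of necroptosis, rose. The inflammasome adaptor Pycard (ASC, -0.92) and the kinase Ripk3, which activates Mlkl (-1.37), fell. Survival genes rose in 7 of 10 tested, among them Bcl2a1d (1.07), 1 of several near-identical copies, and Birc3 (0.87), while Bcl2 itself fell (-1.62) and so did the killer Bmf (-1.69).

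Secreted proteins of the acute phase, best known from liver, rose in these cells. Of 6 tested acute-phase genes 6 rose, led by Saa3 (34.030 ± 8.04 to 739.5 ± 144 TPM, 4.42) and Lcn2 (2.38), which binds the iron carriers of bacteria. Hamp, the hormone hepcidin that blocks iron export, stood at 0.398, 0.328, 0.291 and 0.290 TPM in the untreated and 15.1, 22.998, 16.7 and 18.1 TPM in the LPS libraries, a change of 3.84 (SE 0.22, adjusted p = 1.2e-13). Tfrc, the transferrin receptor that imports iron, fell by 1.33, the ferritin heavy chain Fth1 rose a little from a very high level (0.30), and the exporter Slc40a1 was not called (-0.69; called lower with the mouse as a block, adjusted p = 0.0387). The small rise of Fth1 was not called without the LPS library of mouse 1 (0.30) or 3 (0.30) or the untreated one of mouse 2 (0.28) or 3 (0.30), nor when structural RNA was left out of the TPM (0.28). Among proteases, Mmp13 (2.86) and Mmp14 (1.02) rose and Mmp19 (-2.27) and the plasminogen activator Plau (-2.09) fell, and the protease inhibitors Serpinb9 (2.92), Serpinb2 (2.18) and Slpi (1.93) rose.

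Genes of glycolysis moved in both directions. Of 20 glycolysis genes 5 rose and 8 fell. Among those that rose was Slc2a6, a hexose transporter of inflamed macrophages. It stood at 99.7, 88.2, 82.5 and 101 TPM in the untreated and 330.1, 288, 329.9 and 316 TPM in the LPS libraries (1.76). Pfkfb3 (0.94), which makes the activator of phosphofructokinase, rose too. The widely used transporter Slc2a1 was not called (-0.71), though the fit with the mouse as a block called it lower (adjusted p = 0.0166), and so did that without the LPS library of mouse 3 (-0.79). Gpi1 (-1.10), Tpi1 (-0.99), Pkm (-0.78) and Ldha (-0.71), enzymes of the pathway proper, fell, although Ldha was not called without the untreated library of mouse 3 (-0.75). Of 21 genes listed for the tricarboxylic acid cycle 9 fell and none rose. Idh1 (-1.60), whose enzyme is cytosolic and lies outside the mitochondrial cycle, and Fh1 (-1.35) were lowest. Nuclear genes of the respiratory complexes stayed near the typical gene, with 21 of 22 not called.

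Genes of lipid synthesis fell. Of 11 fatty acid synthesis genes 10 fell, and Scd2, a desaturase, stood at 47.1, 43.989, 40.8 and 44.9 TPM in the untreated and 4.20, 3.36, 4.43 and 3.30 TPM in the LPS libraries, a log2 change of -3.23 (SE 0.11, adjusted p = 9.3e-17). Fads1 (-2.19) and Fasn (-2.15), the fatty acid synthase, came next. Of 20 cholesterol synthesis genes 16 fell, among them Dhcr7 (-1.97), the enzyme of the last step, but Idi1 (0.59) and Pmvk (0.40) rose. Ch25h, which turns cholesterol into 25-hydroxycholesterol, a signal that blocks this synthesis, rose from 14.4 ± 3.16 to 148 ± 34.7 TPM (3.27). Among antioxidant genes the mitochondrial superoxide dismutase Sod2 rose (1.78) and the glutathione enzymes Gpx1 (-1.09) and Gclc (-1.21) fell.

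Genes of the dividing cell fell. Of 28 mitosis genes 27 fell, with a median log2 change of -1.78 (-1.30 with median-of-ratios scaling), and of 30 replication genes 24 fell (-0.92, or -0.48), while Tyms, which makes thymidylate, rose (0.48). Cdc20, the activator of the anaphase complex, stood at 21.015, 18.8, 14.8 and 17.4 TPM in the untreated and 2.72, 3.01, 2.96 and 2.55 TPM in the LPS libraries. Without overlap of the groups, as in 53.8% of all tested genes with LPS lower, it fell by 2.31 (SE 0.12, adjusted p = 1.8e-14). Ccnb1, the mitotic cyclin, fell by 2.06. The D cyclins of early G1 did not move together. Ccnd2 stood at 202, 152, 135 and 177 TPM in the untreated and 734, 608, 691 and 641 TPM in the LPS libraries, a rise of 2.01 (SE 0.12, adjusted p = 5.1e-14), whereas Ccnd1 (-0.998) and Ccnd3 (-1.06) fell with their kinases Cdk4 (-1.48) and Cdk6 (-0.92). The inhibitors Cdkn1a (p21, 0.70) and Cdkn1b (p27, 0.50) rose and Cdkn2c (p18, -1.78) fell.

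Promoter windows of Ccnb1 (chr13:100786487-100786636, minus strand) and Cdc20 (chr4:118437344-118437493, minus strand) are shown for their paired CCAAT boxes, a known feature of mitotic promoters, marked in capitals at -99 and -67 bases from the Ccnb1 start and -53 and -8 bases from the Cdc20 start, again from RefSeq on GRCm38.p6.
Ccnb1: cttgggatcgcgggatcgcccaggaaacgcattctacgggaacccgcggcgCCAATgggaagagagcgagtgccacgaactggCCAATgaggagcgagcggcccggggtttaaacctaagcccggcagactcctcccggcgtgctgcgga
Cdc20: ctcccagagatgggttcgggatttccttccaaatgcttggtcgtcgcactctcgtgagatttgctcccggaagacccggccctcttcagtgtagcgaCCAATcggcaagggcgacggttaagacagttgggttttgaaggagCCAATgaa
The letters CCAAT, on either strand, stood in 20 of 23 windows of mitosis genes (87%), in 16 of 24 of replication genes and in 37.3% of all windows of tested genes. Among all genes that fell the share was 39%.

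Genes of cell growth fell too. Myc, which drives ribosome production, stood at 34.9, 32.9, 32.6 and 30.6 TPM in the untreated and 5.05, 5.33, 5.38 and 5.28 TPM in the LPS libraries, and its change was -2.43 (SE 0.11, adjusted p = 4.3e-12). Its antagonist Mxd1 rose (1.24). Of 35 ribosome biogenesis genes 32 fell and none rose, with a median log2 change of -1.40, or -0.89 with median-of-ratios scaling. Dkc1, which modifies ribosomal RNA, went from 20.2 ± 2.91 to 2.67 ± 0.976 TPM (-2.57) and Nop58, a core protein of the small nucleolar particles, from 75.4 ± 4.92 to 16.4 ± 1.32 TPM (-2.14). Host transcripts of small nucleolar RNAs, Snhg1 (-1.82) and Gas5 (-1.31), fell too, and Mir155hg, the host of an inflammatory microRNA, rose (2.20). Ribosomal proteins themselves stayed near the typical gene, with 3 of 83 called lower and none higher. Amino acid carriers split in the same comparison, Slc1a2 (3.50) and Slc7a8 (1.34) rising and the glutamine carrier Slc1a5 (-2.22) and the leucine carrier Slc7a5 (-1.59) falling.

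With a pseudocount of 1 TPM the steepest fall of a named gene was that of Pald1 (paladin), with 24.6, 22.8, 22.3 and 23.2 TPM in the untreated and 0.850, 0.891, 1.12 and 0.882 TPM in the LPS libraries, a log2 change of -3.65 (SE 0.12, adjusted p = 6.6e-17). With 0.1 TPM, B3gnt7 (-4.52) fell slightly further than Pald1 (-4.50). The activating receptor Cd300lb (-3.39), the glycosyltransferases B3gnt7 (-3.35) and St6gal1 (-2.71), Angptl2 (-3.21), a secreted angiopoietin-like protein, and the adhesion molecule Cdh1 (E-cadherin, -2.70) came next, beside Scd2 and Cebpa. The clustered histone genes Hist1h2an (-2.91) and H3c8 (-2.89), whose messages lack a poly(A) tail, fell as well. By absolute gain in level, Ccl22, Ccl17, Ccl5, Il1b, Cxcl3 and Cxcl10 led among messenger RNAs, together with Actb (7298 ± 630.4 to 10128 ± 678 TPM, 0.47) and Fth1. Actb was not called without the LPS library of mouse 1 (0.46). By absolute loss, Ccl6, the lectins Clec4n and Clec7a, the lipase Lpl, the fatty acid receptor Cd36 and the uncoupling protein Ucp2 led, each log2 change between -1.19 and -0.83. GENCODE marks Clec7a as a polymorphic pseudogene, so the rule for named genes passes over it. Single copies of structural RNAs were also called higher, the 7SL copy Rn7s2 (21488, 19303, 51452 and 36377 TPM in the untreated and 163693, 65715, 52425 and 48931 TPM in the LPS libraries) and the U2 copy Rnu2-10 (2009 ± 690.0 to 4374 ± 1434 TPM, 1.13). The groups overlapped for Rn7s2, which was not called on the 8 B6 libraries alone. The share of TPM in structural RNA, which counts 7SL but not U2, did not rise (37.8% untreated, 37.0% with LPS). Rnu2-10 was not called without the LPS library of mouse 1 (0.93) or the untreated one of mouse 3 (0.92), and the change of Rn7s2 went from 1.29 to 0.90 without the LPS library of mouse 1. Both 7SL copies together took 22.2% to 29.7% of TPM in untreated and 25.1% to 27.2% in LPS libraries, which overlap, and how reads were split between the copies was not tested.

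For each mouse the change was also taken between its own untreated and LPS libraries. Over the 2876 called genes that averaged at least 10 TPM in one of the groups and did not overlap (a state met with LPS higher by 10.6% and with LPS lower by 53.8% of all tested genes), the SD of the log2 change between mice had a median of 0.197. Pcyt2, an enzyme of phosphatidylethanolamine synthesis, was the most even, at -1.46, -1.49, -1.48 and -1.49 in mice 1 to 4. Cxcl9 was among the most variable, at 2.62, 1.51, 3.87 and 2.92, and so was Ptgs2, at 6.20, 5.60, 6.97 and 6.76. Rnu3b3, a U3 small nucleolar RNA, varied most, at 0.70, 1.79, 0.38 and 3.22. In mice 1 and 2 alone the rule called 1337 genes higher and 2737 lower, and in mice 3 and 4 alone 1560 and 2839. Xist stood at 47.3 to 65.4 TPM in the libraries of mice 3 and 4 and under 0.1 TPM in those of mice 1 and 2, and the Y-linked Ddx3y at 20.9 to 29.9 TPM in mice 1 and 2 and under 0.1 TPM in mice 3 and 4, so these splits of B6 mice are also splits by sex.

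The B6 response was set against the mean response of C57 and PWD cells, given the same culture and LPS, in the same fit. Of all tested genes 16.1% differed, 742 with a higher log2 change in B6 (5.60%) and 1385 with a lower one (10.5%). Hdc showed the largest difference upwards: its log2 change was 4.40 in B6, 2.58 in C57 and 0.32 in PWD, a difference of 2.95 (SE 0.21, adjusted p = 6.7e-10). For Nos2 the changes were 6.78, 4.96 and 3.75, a difference of 2.43 (SE 0.15, adjusted p = 3.4e-10). Ptgs2 changed by 6.38, 5.70 and 4.19 in the same order. The apolipoproteins Apol7c (3.49, 2.77 and 0.23) and Apol9b (3.41, 2.97 and 0.02) and the GTPase Iigp1 (3.65, 3.17 and 0.53) rose in B6 and C57 and were under 1 TPM on average in PWD with and without LPS. Olfr56, a gene inside the chromosome 11 run of GTPases, rose in B6 (2.99) and was under 1 TPM in C57 and PWD. Snn differed by 1.98 (SE 0.15, adjusted p = 1.1e-09) and Plaat3 by 1.83 (SE 0.15, adjusted p = 2.1e-09).

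In the other direction, Areg, a ligand of the epidermal growth factor receptor, changed by 0.83 in B6 against 2.39 in C57 and 3.28 in PWD, a difference of -2.01 (SE 0.31, adjusted p = 2.1e-04). Dusp6 fell in B6 (-1.96) but hardly changed in C57 (-0.18) and PWD (-0.34), a difference of -1.70 (SE 0.15, adjusted p = 1.5e-08). Prc1, which bundles the spindle midzone, changed by -1.94, -0.73 and 0.22, and the tight junction gene Cldn1 by -1.56, -0.26 and 0.44. The interferon-stimulated Rtp4 changed by 1.35, 1.73 and 4.31. Krt6b (3.78), the hyaluronan synthase Has1 (3.93) and Ifi44l (3.34) rose in PWD and were under 1 TPM on average in B6 with and without LPS. Of these, Has1 was called higher in B6 as well (0.0365 to 0.530 TPM, log2 change 0.50), though not without the LPS library of mouse 3 (0.30). Reads of PWD, a strain derived from wild Mus musculus musculus, were set against the mm10 build, and the part of alignment in genes near 0 TPM in 1 strain was not tested.

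**Figure D5:**
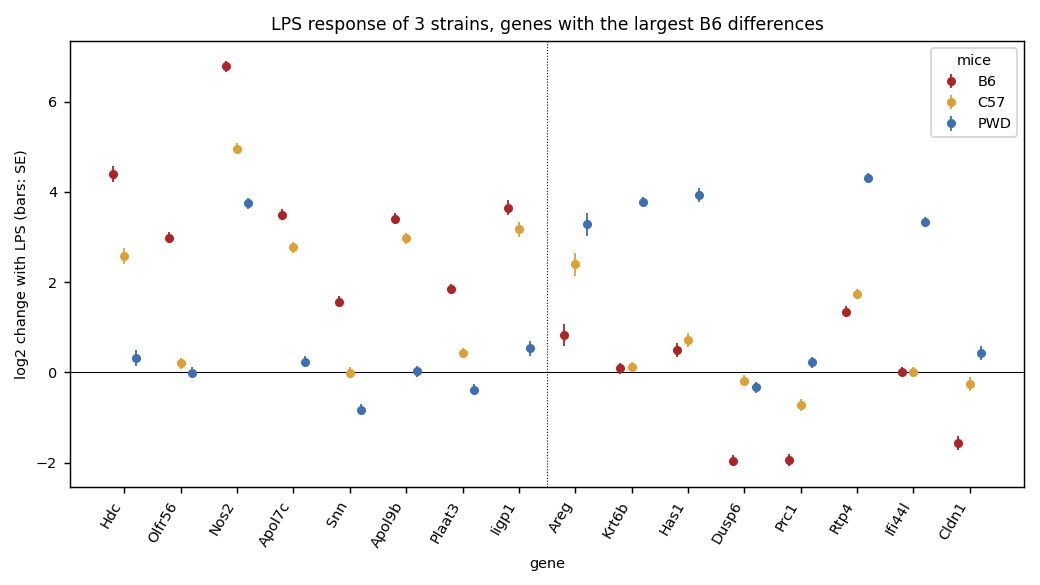
Log2 change with LPS in B6, C57 and PWD cells for the 16 genes at the extremes of the difference, with bars of 1 standard error. B6 lies above both other strains in the 8 genes on the left, from Hdc to Iigp1, and below the mean of both in the 8 on the right, from Areg to Cldn1, which is how the genes were chosen.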

How the data were processed

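RNA of 24 mouse dendritic cell cultures was sequenced, and the 8 of B6 mice are described here. The deposited table gives TPM per gene symbol and library, each library scaled by the authors to the same total. STAR, edgeR and the build mm10 are named, without versions, per the submitters' processing notes. Annotation, counter and TPM method: not given in the sources used here. Since TPM carry no read depth, no count test and no counting interval could be given. The 110 extra lines of repeated symbols were summed, leaving 55291 symbols, and the 13246 with 1 TPM or more in at least 4 of 24 libraries were tested. The 6 group means were fitted to log2(TPM + 1) with limma 3.58.1 in R 4.3.3 (empirical Bayes with trend and robust options, 18 residual degrees of freedom), with Benjamini-Hochberg adjustment over all tested genes, under 3 scalings: TPM as deposited, median-of-ratios and quantile. The 24 libraries share this estimate of the spread. Other values came from Python 3.11.15.

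The libraries of a group are separate mice, and those of the same number come from the same mouse according to the series' design text. Correlations of the deviations of same-numbered libraries were 0.17, 0.168, 0.0513 and 0.106. The LPS libraries of mice 3 and 4 correlated more with the untreated library of the other of these mice (0.138 and 0.151). Alternatives were a block for the mouse, each scaling alone, a pseudocount of 0.1 TPM, no filter, a filter of 5 TPM, a filter on the B6 libraries, plain empirical Bayes, the 8 B6 libraries alone, a minimum log2 change of 1, TPM without structural RNA, mice 1 and 2 or 3 and 4 alone, and each library left out in turn.

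Genes are named by size of change or of gain in TPM among called genes, by rank within 53 gene lists and 10 marker lists, as core genes of the LPS response, by the difference between strains and by the spread between mice, and only part of those so found is given. The genes, lists and rules were chosen with earlier results of these data known. These 35 genes fall outside the rules and were chosen after their values were seen: Aim2, Arg2, B2m, Casp1, Ccl2, Ccnd1, Ccnd3, Cd274, Cdk6, Cdkn1a, Cdkn1b, Clec7a, Dusp1, Gch1, Gsdmd, Hpgds, Il33, Irak3, Irf3, Isg15, Junb, Ldha, Mmp14, Nlrp3, Nod1, Oas1a, Oas2, Oas3, Pkm, Slc40a1, Stat2, Tap2, Tbk1, Zbtb46, mt-Co2. Positions are those of GENCODE M21 on mm10, which matched 12977 tested symbols. Promoter sequences came from RefSeq (GRCm38.p6) and matched 9419 of the tested genes. Letters were searched on both strands of the 250 bases before the start (ISRE, kB, AP-1 and CCAAT). Some genes are not reported here.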

Additional observations from a re-analysis of the deposited data

Results flagged for a closer look

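Among 552 groups of 4 libraries (the genes named above and 3 measures of composition, untreated and LPS), 27 held a library whose gap to the nearest of the others exceeded Dixon's 95% critical value as a share of the group's range. Chance alone gives about 1 in 20 such groups. In the LPS library of mouse 2, Actb at 9119 TPM against 10347 to 10535 TPM, Cd83 at 156 TPM against 203 to 211 TPM, Cdk6 at 25.2 TPM against 22.1 to 22.6 TPM and Fads1 at 2.10 TPM against 2.71 to 2.84 TPM stood apart from the other 3. The same library held Itgax at 208 TPM against 243 to 249.9 TPM, Jun at 15.9 TPM against 14.6 to 14.8 TPM, Saa3 at 953 TPM against 643 to 682 TPM and Sod2 at 640.1 TPM against 661 to 665 TPM. In the untreated library of mouse 3, Ccnb1 at 22.7 TPM against 30.1 to 31.4 TPM and Ccrl2 at 21.2 TPM against 19.6 to 19.7 TPM stood apart from the other 3. The same library held Cdkn1b at 9.63 TPM against 13.8 to 14.1 TPM, Idh1 at 51.5 TPM against 65.1 to 66.2 TPM and Il18r1 at 1.27 TPM against 1.85 to 1.95 TPM. In the LPS library of mouse 1 the values that stood apart were Klf4 at 2.38 TPM against 3.02 to 3.08 TPM, Rn7s2 at 163693 TPM against 48931 to 65715 TPM, Slc7a5 at 9.56 TPM against 7.52 to 7.85 TPM and Tfrc at 9.19 TPM against 7.49 to 7.78 TPM. In the LPS library of mouse 3 the values that stood apart were Ccl2 at 395 TPM against 420.5 to 425 TPM, Nlrp3 at 145 TPM against 123 to 125 TPM and Pald1 at 1.12 TPM against 0.850 to 0.891 TPM. In the untreated library of mouse 4 the values that stood apart were Ccnd1 at 44.3 TPM against 29.6 to 32.1 TPM, Csf2 at 0.103 TPM against 0 TPM in the other 3 and Oas2 at 12.5 TPM against 9.01 to 9.17 TPM. In the untreated library of mouse 2 the values that stood apart were Hdc at 2.19 TPM against 3.40 to 3.61 TPM and Junb at 94.2 TPM against 108 to 109 TPM. In the LPS library of mouse 4 the value that stood apart was Hdc at 95.5 TPM against 81.993 to 84.2 TPM. In the untreated library of mouse 1 the value that stood apart was Cxcl5 at 1.37 TPM against 0.757 to 0.819 TPM.

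Of the 273 genes named above, 142 had a called difference between the response of B6 cells and the mean response of C57 and PWD cells, against 16.1% of all tested genes, and 21 of these differed by 1.5 or more on the log2 scale (limma, Benjamini-Hochberg adjusted p under 0.05 under all 3 scalings). The difference was positive, with the change in B6 above the mean of C57 and PWD, for Hdc (2.95), Olfr56 (2.89), Nos2 (2.43), Apol7c (1.99), Snn (1.98), Apol9b (1.91), Plaat3 (1.83), Iigp1 (1.80), Il12a (1.78), Hamp (1.76) and Serpinb9 (1.53). Hamp changed alike in B6 (3.84) and C57 (3.84), so its difference came from PWD (0.32), where it averaged under 1 TPM with and without LPS. The difference was negative for Areg (-2.01), Krt6b (-1.86), Has1 (-1.82), Csf2 (-1.78), Dusp6 (-1.70), Prc1 (-1.68), Rtp4 (-1.67), Ifi44l (-1.67), Cldn1 (-1.65) and Hist1h2an (-1.62). The difference was the ground on which 16 of these were named, and the other 5 were named for their change in B6 or their list, so that the values describe the named genes only.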

How the results depend on the processing

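The counts of genes called in B6 cells, 1563 higher and 3518 lower, stayed within 1.5 times of these values under every alternative tried except the following. Median-of-ratios scaling alone gave 4128 higher, quantile normalization alone 3354 higher and TPM as deposited alone 7905 lower, since the call then rests on 1 scaling in place of 3. A minimum log2 change of 1 left 568 higher and 504 lower. With 1 B6 library left out the counts ranged from 1417 to 1585 higher and from 3320 to 3442 lower. With the mouse as a replicate block they were 1572 higher and 3563 lower, and the block changed the call of 3 named genes, all given above. For the difference between B6 and the other strains, 742 higher and 1385 lower became 2296 higher with median-of-ratios scaling alone, 1694 higher with quantile normalization alone, 2184 lower with TPM as deposited alone and 110 and 79 with a minimum of 1. Mice 1 and 2 alone gave 416 and 651, and mice 3 and 4 alone gave 894 lower, with fewer libraries. With 1 library left out the range was 615 to 742 higher and 1220 to 1333 lower, and with the replicate block the counts were 794 and 1478.

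Of the 273 genes named, 258 were called in B6 cells, and none of these changed sign under any alternative. In mice 1 and 2 alone 10 of them were no longer called: Actb, Areg, C1qb, Ccnd1, Cd80, Fth1, Has1, Ldha, Lpl and Tnfsf13. In mice 3 and 4 alone 15 were not: Actb, B2m, Ccl2, Ccr1, Csf2, Fos, Fth1, Hpgds, Pmvk, Pycard, Rn7s2, Rnu2-10, Rnu3b3, Sting1 and Tlr4. Uncalled genes that changed sign were, with median-of-ratios scaling, Csf2rb (0.22), H2-Ab1 (0.51), Itgax (0.052) and Tnfrsf1a (0.35), with mice 1 and 2 alone Adgre1 (-0.028) and Ciita (-0.091), and with mice 3 and 4 alone H2-Ab1 (0.021). With 1 library left out, Adgre1 ranged from -0.042 to 0.21, Ciita from -0.14 to 0.17 and H2-Ab1 from -0.12 to 0.016. The difference of Areg between strains was not called with a pseudocount of 0.1 TPM (-1.90, adjusted p = 0.0704). The share of TPM in structural RNA, -0.705 percentage points with LPS, ranged from -2.62 to 1.45 with 1 library left out and turned positive without the LPS library of mouse 1 (0.565) or the untreated library of mouse 3; the cause was not tested. Within mouse pairs (replicate block) the exact two-sided p was 1 for structural RNA, 0.5 for mitochondrial messenger RNA (-0.219 percentage points) and 0.125, the smallest that 4 pairs allow, for the number of genes at 1 TPM or more (-838 genes). For the difference between strains the fit on the 8 B6 libraries alone was not run, since it needs the other strains.

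TPM give no depth, so the precision of genes near 1 TPM rests on the spread between 4 libraries, and their log2 changes depend on the pseudocount. The spread was estimated over all strains. Fits on the 8 B6 libraries alone called 1533 genes higher and 3284 lower. In these fits 6 of the named genes were no longer called: Areg, B2m, Ccr1, Mrc1, Rn7s2 and Rnu3b3. Zbtb46, not called in the main fit, was called higher in them (0.28, adjusted p = 0.0426). LPS and the time in culture with it were given at 1 dose and 1 time.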
